A study of Mus musculus with 12 samples.

Results

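The comparison described here set 3 mouse medulloblastomas (mice GB344, GB359 and GB370) against the cerebellum of 3 tumor-free mice (GB517, GB519 and GB520), which makes 6 of the 12 RNA-seq samples of the series. The samples were chosen by their labels: tissue Medulloblastoma with genotype Brca2-mut;Trp53-mut, and tissue Cerebellum with genotype Brca2-WT;Trp53-mut. Tumor mice carried Brca2Δex3-4, a floxed Brca2 allele that loses exons 3 and 4 in cells with the hGFAP-Cre transgene, which is active in neural progenitors of the central nervous system. Both groups were Trp53-/-, with a germline neo cassette in place of exons 2 to 6, so loss of p53 was shared by tumors and controls and did not differ in the comparison. The mice came from crosses of B6/129S and FVB stock, and the control cerebella were described as age-matched, with no age given in the labels. Whether the controls carried the Cre transgene was not stated in the sources used here. The other samples, the adjacent cerebellum of the same 3 tumor mice and 3 cerebella labelled Brca2-mut;Trp53-WT, were used only as values set beside this comparison.

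Granule cell progenitors line the outer cerebellar surface after birth, divide in response to sonic hedgehog made by Purkinje cells, and then leave the cell cycle, migrate inward and become granule neurons. Hedgehog binding to Patched frees Smoothened, which acts in the primary cilium to activate GLI transcription factors and, through them, MYCN and D-type cyclins. Medulloblastomas of the SHH subgroup arise from these progenitors. The adult cerebellum, in contrast, is made of postmitotic granule, Purkinje and inhibitory neurons, Bergmann glia and myelin, and its roof borders the fourth ventricle and its choroid plexus.

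Levels are TPM, transcript abundances scaled to transcript length and to a fixed total within each sample. Values are listed in the order GB344, GB359 and GB370 for tumors and GB517, GB519 and GB520 for controls. A difference is the log2 fold change of TPM + 1, tumors minus controls, with its standard error (SE) and the adjusted p of limma over all tested genes, and a gene was called where that p was under 0.01 and the change was 1 log2 unit or more in either direction. Of 15970 tested genes, 2163 (13.5%) rose and 3562 (22.3%) fell in the tumors, and 10245 were not called. In all 5725 called genes the tumor and control values did not overlap. With 3 mice a group the calling rule nearly brings this about, so it is no separate support for the calls. The share of all tested genes without overlap is not given here. The median log2 fold change of all tested genes was -0.16, and list medians below are set beside it. After quantile normalization this median was 0.05 and the split became 2698 higher against 2946 lower, so that 47.8% of calls were higher in place of 37.8%. Rises of at least 3 log2 units were found in 352 genes and falls of that size in 613.

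The samples were alike in breadth, with 15088 to 15661 genes at 1 TPM or more in each. Because these are bulk tissues, fewer cells of a type and less RNA per cell cannot be told apart in any difference given here. The genotype could not be checked, since gene-level TPM do not separate the deleted exons from the rest of each gene. Trp53 was listed at 128, 124 and 130 TPM in the tumors and at 47.1, 49.2 and 49.4 TPM in the controls, both Trp53-/- (log2 fold change 1.37, SE 0.08, adjusted p = 1.82e-05), and Brca2 at 8.22, 14.6 and 10.9 TPM against 3.24, 4.4 and 3.72 TPM (log2 fold change 1.33, SE 0.22, adjusted p = 0.00174). Mouse GB370 was female by its transcripts, with Xist at 215 TPM in the tumor and 97.1 TPM in the adjacent cerebellum and Ddx3y at 0.411 and 0.81 TPM, whereas the other 10 samples had at most 0.243 TPM of Xist and at least 31.2 TPM of Ddx3y. Sex was therefore not balanced between the groups. None of the 4 tested sex-linked genes was called.

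The granule cell progenitor list had the highest median log2 fold change of the cell type lists. Of 19 tested progenitor genes, 12 rose and 2 fell, with a median log2 fold change of 3.20. Atoh1, the bHLH factor that specifies these progenitors, was at 119, 244 and 319 TPM in the tumors and at 0.04, 0.132 and 0.0384 TPM in the controls (log2 fold change 7.62, SE 0.35, adjusted p = 9.24e-06). Every tumor exceeded every control, and the control level was close to 0. Nhlh1, a bHLH factor of early granule neurons, was at 156, 256 and 232 TPM against 0.0658, 0.325 and 0 TPM (log2 fold change 7.55, SE 0.22, adjusted p = 3.5e-06). Members under 1 TPM in every control, such as Atoh1 and Nhlh1, were tested only because the tumors passed the filter. They could not have been called lower, so the count is no test of direction for them. Insm1, a zinc finger factor of neural progenitors, was at 387, 390 and 544 TPM against 1.6, 1.79 and 1.82 TPM (log2 fold change 7.32, SE 0.16, adjusted p = 1.94e-06). Barhl1, Sox11 and the MAX partner Mxd3 also rose, by 3.93, 5.30 and 4.12 log2 units. Factors shared by progenitors and mature granule neurons moved less. Pax6 was at 95, 156 and 133 TPM against 70.1, 75.5 and 74.6 TPM and missed the fold threshold (log2 fold change 0.76, SE 0.18, adjusted p = 0.0082), and Neurod1 was at 262, 533 and 391 TPM against 418, 385 and 400 TPM (log2 fold change -0.08, SE 0.24, adjusted p = 0.791), with overlapping groups. Meis2 fell (log2 fold change -1.79, adjusted p = 0.000936). Summed over the list, progenitor genes held 2601 to 4162 TPM in tumors and 1259 to 1314 TPM in controls, and GB344 was the lowest tumor.

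The genes with the largest rises were not all cell cycle genes. Draxin, a secreted axon guidance protein, led all genes, at 274, 330 and 325 TPM in the tumors and 0.304, 0.263 and 0.418 TPM in the controls (log2 fold change 7.87, SE 0.13, adjusted p = 1.61e-06). Igfbpl1, a secreted protein related to the IGF-binding proteins, was at 175, 322 and 247 TPM against 0.238, 0.456 and 0.171 TPM (log2 fold change 7.56, adjusted p = 3.91e-06). Otx1, a homeobox factor, was at 115, 146 and 167 TPM against 0.328, 0.429 and 0.351 TPM (log2 fold change 6.70, adjusted p = 2.55e-06). Cell surface and matrix genes were also among the 15 largest. Tecta, which encodes alpha-tectorin of the inner ear, was at 65.8, 156 and 140 TPM against 0.115, 0.127 and 0.0398 TPM (log2 fold change 6.70, adjusted p = 1.05e-05). Sstr2, a somatostatin receptor, was at 109, 172 and 268 TPM against 0.605, 0.865 and 0.941 TPM (log2 fold change 6.58, adjusted p = 1.04e-05), with tumor GB370 the highest. Snord93, a small nucleolar RNA, was the least certain of the 15, at 370, 298 and 248 TPM against 40.2, 0 and 0 TPM (SE 1.39), and its adjusted p was 0.0145 to 0.0213 when any library but GB517 was left out.

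Hedgehog pathway genes rose in part, and the ligand Shh fell. Among ligands, receptors and coreceptors, 3 of 9 tested genes rose and 2 fell. Shh went from 5.94, 6.48 and 7.24 TPM in the controls to 0.672, 0.82 and 0.766 TPM in the tumors (log2 fold change -2.10, SE 0.14, adjusted p = 2.91e-05). The coreceptor Cdon fell as well (log2 fold change -2.48, adjusted p = 4.88e-05). Ptch1, the receptor that restrains Smoothened and is itself a GLI target, was at 146, 237 and 303 TPM in the tumors and at 197, 200 and 199 TPM in the controls (log2 fold change 0.14, SE 0.25, adjusted p = 0.644). The tumor values lay on both sides of the controls, GB344 below and the other tumors above. The decoy receptor Hhip rose by 1.42 log2 units and Smo by 2.41. Of 15 transduction genes, 8 rose. Gli2 was at 33.9, 52.2 and 73.8 TPM against 3.09, 3.01 and 3.93 TPM (log2 fold change 3.58, SE 0.28, adjusted p = 5.35e-05), and Gli1 rose by a similar amount (log2 fold change 3.49, adjusted p = 1.93e-05), while Gli3, whose product acts mainly as a repressor, was not called (-0.04). The ciliary proteins Evc and Evc2 rose by 2.38 and 2.24 log2 units. Spop, an adaptor for degradation of GLI proteins, fell (log2 fold change -1.63, adjusted p = 0.000109). Of 18 targets and subgroup genes, 12 rose and 1, Sphk1, fell (median 2.93), the latter with an adjusted p of 0.0109 without GB517.

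Igf2, a growth factor often linked to this tumor type, differed between the tumors. Its level was 212, 12.3 and 29.8 TPM in the tumors and 105, 101 and 86.8 TPM in the controls (log2 fold change -1.14, SE 0.92, adjusted p = 0.306). GB344 stood above all controls, and the other tumors stood below them, so that Igf2 passed as lower without GB344 (log2 fold change -2.28, adjusted p = 0.00134). The imprinted RNA H19, which neighbours Igf2, had the same outlying tumor, at 73.5, 2.27 and 2.87 TPM against 1.55, 1.74 and 1.8 TPM. Elsewhere in the IGF system, the adaptor Irs1 rose (log2 fold change 2.66, adjusted p = 0.000342), Igfbp3 and Igfbp4 rose by 1.34 and 1.6 log2 units, and Igfbp6 fell (log2 fold change -2.79, adjusted p = 0.00036).

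Within the MYC network, all 3 MYC paralogs rose. Mycn was at 1133.5, 355.6 and 343.9 TPM in the tumors and 4.07, 4.85 and 3.49 TPM in the controls (log2 fold change 6.67, SE 0.45, adjusted p = 3.16e-05), with GB344 about 3 times as high as the other tumors. Mycl was at 60.7, 109 and 94.2 TPM against 4.68, 3.78 and 4.14 TPM (log2 fold change 4.06, SE 0.23, adjusted p = 1.59e-05) and Myc at 15.9, 41.3 and 43.1 TPM against 2.1, 1.69 and 2.1 TPM (log2 fold change 3.42, SE 0.37, adjusted p = 0.000227). Max, Mnt, Mga, Mlx, Mxi1, Mxd1 and Mxd4 were not called. The genes beside Mycn on chromosome 12 separated GB344 from the other tumors. Ddx1, the tested gene nearest to Mycn, was at 5180, 159 and 184 TPM against 113, 114 and 121 TPM. Nbas was at 364, 14.1 and 16.6 TPM against 23.3, 22.7 and 23.6 TPM, and Fam84a at 122, 1.95 and 2.27 TPM against 25.9, 20.1 and 28.1 TPM. In these 3 genes GB344 exceeded all controls, whereas for Nbas and Fam84a the other tumors were below them, and none was called. Without GB344, Fam84a passed as lower (log2 fold change -3.04, adjusted p = 2.67e-05). On the other side of Mycn, the nearest tested gene, Fam49a, fell (9.06, 14.8 and 14.7 TPM against 27.1, 27.6 and 31.6 TPM, log2 fold change -1.13, adjusted p = 0.00234). Farther out, Vsnl1 fell (-5.06) and Smc6 was not called (0.62). Gen1, beyond these genes, rose in all 3 tumors (9.99, 13.1 and 11.5 TPM against 0.311, 0.252 and 0.493 TPM, log2 fold change 3.21, adjusted p = 1.14e-05). DNA copy number was not analysed here.

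Cell cycle entry genes formed the next group. Of 18 G1 genes, 9 rose and none fell. The D-type cyclin Ccnd2 was at 254, 823 and 660 TPM against 4.7, 6.63 and 4.67 TPM (log2 fold change 6.37, SE 0.42, adjusted p = 2.95e-05) and its partner Cdk4 at 674, 673 and 840 TPM against 73.5, 73.3 and 68.8 TPM (log2 fold change 3.32, SE 0.11, adjusted p = 4.58e-06). Ccnd1 and Cdk6 rose by 3.26 and 5.29 log2 units, and Ccnd3 was not called. Among the inhibitors of these kinases, Cdkn2a, Cdkn2b and Cdkn2c rose. Cdkn2a, which encodes p16INK4a and p19ARF, was at 126, 115 and 321 TPM in the tumors and at 0, 0 and 0.655 TPM in the controls (log2 fold change 7.15, SE 0.42, adjusted p = 1.98e-05). The levels of Cdkn2b and Cdkn2c were 19.5, 16.1 and 15.8 TPM and 49, 136 and 70.6 TPM in the tumors (log2 fold change 3.32, adjusted p = 8.31e-06; log2 fold change 3.45, adjusted p = 0.00015). Cdkn1a, a p53 target, was not called, at 14.6, 21 and 13.5 TPM against 22, 25.1 and 16.7 TPM in these Trp53-/- tissues (log2 fold change -0.37, adjusted p = 0.177). Rbl1 (p107) rose by 2.07 log2 units, and Rb1 was not called (0.00). The E2F factors E2f1, E2f2, E2f3, E2f7 and E2f8 and their partner Tfdp1 rose, whereas E2f4, E2f5, E2f6 and Tfdp2 were not called.

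DNA replication and mitosis genes rose almost without exception. Of 34 licensing and fork genes, 33 rose (median 2.60), and the single gene not called was Rpa1 (0.32). Mcm6, a subunit of the replicative helicase, was at 133, 239 and 229 TPM against 4.3, 5.44 and 4.94 TPM (log2 fold change 5.05, SE 0.24, adjusted p = 9.87e-06), and Gins2 at 53.8, 70.5 and 67.8 TPM against 1.95, 1.23 and 1.91 TPM (log2 fold change 4.59, adjusted p = 6.44e-06). Of 33 mitotic genes, 32 rose (median 4.76), and Anln was not called (0.05). Members under 1 TPM in every control, such as Ccnb1 and Foxm1, were tested only because the tumors passed the filter. Those members could not have been called lower, so the count is no test of direction for them. Ccnb1, the mitotic cyclin, was at 75.5, 70.7 and 75 TPM against 0.508, 0.469 and 0.41 TPM (log2 fold change 5.68, SE 0.12, adjusted p = 1.94e-06). Foxm1, a transcription factor of mitotic genes, was at 53.5, 72.9 and 90 TPM against 0.537, 0.628 and 0.736 TPM (log2 fold change 5.46, SE 0.21, adjusted p = 6.18e-06). The tumors were close to each other on this list, with summed levels of 2299, 2261 and 2460 TPM, against 102.5 to 118.7 TPM in the controls. Cohesin and condensin genes split by their role. The condensin subunits Ncaph, Ncapg, Smc2 and Smc4 and the cohesin regulators Cdca5, Esco2 and Sgol1 rose, by 3.46 to 5.14 log2 units, whereas the core cohesin subunits Smc1a, Smc3, Rad21 and Stag2 were not called, at 0.16 to 0.82.

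The promoters of these 2 lists were searched for cell cycle motifs. Promoter windows of 250 bases before and 50 after each gene start were taken from RefSeq (GRCm38.p6), for 26 of the replication genes (31 windows) and 25 of the mitotic genes (27 windows). The E2F motif, searched as TTTCCCGC or TTTGGCGC on both strands, was in 32.3% of replication windows, in none of the mitotic windows and in 1.56% of all 32851 windows. The cell cycle homology region (CHR), searched as TTTGAA or TTCGAA, together with a CCAAT box, was in 70.4% of mitotic windows, 16.1% of replication windows and 7.52% of all windows. The windows of synaptic vesicle genes held the E2F motif in 3.33% and CHR with CCAAT in 6.67%. A match describes the letters and is not evidence of a bound site. The windows shown are those of Mcm3, Mcm6, Cenpa and Cdk1, genes with large rises. Capitals mark E2F matches in the first pair and CHR and CCAAT matches in the second pair.
Mcm3 (chr1:20820263-20820562, minus strand): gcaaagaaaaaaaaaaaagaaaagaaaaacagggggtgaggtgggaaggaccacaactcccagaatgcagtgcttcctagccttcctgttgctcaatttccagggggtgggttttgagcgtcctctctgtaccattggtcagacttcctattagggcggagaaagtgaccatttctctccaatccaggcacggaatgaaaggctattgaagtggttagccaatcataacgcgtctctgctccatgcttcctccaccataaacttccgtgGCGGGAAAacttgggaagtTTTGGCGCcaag
Mcm6 (chr1:128359656-128359955, minus strand): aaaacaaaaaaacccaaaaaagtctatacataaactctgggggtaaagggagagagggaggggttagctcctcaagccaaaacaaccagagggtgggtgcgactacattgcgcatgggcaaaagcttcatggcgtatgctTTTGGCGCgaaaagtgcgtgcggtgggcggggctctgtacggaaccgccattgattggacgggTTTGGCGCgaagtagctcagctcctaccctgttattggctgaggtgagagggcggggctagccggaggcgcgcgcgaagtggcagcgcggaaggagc
Cenpa (chr5:30666636-30666935, plus strand): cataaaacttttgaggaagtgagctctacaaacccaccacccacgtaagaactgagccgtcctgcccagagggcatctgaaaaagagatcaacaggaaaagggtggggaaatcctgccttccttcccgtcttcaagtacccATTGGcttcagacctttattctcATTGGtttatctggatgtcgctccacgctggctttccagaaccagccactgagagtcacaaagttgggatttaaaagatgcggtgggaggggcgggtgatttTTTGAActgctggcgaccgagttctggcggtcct
Cdk1 (chr10:69352863-69353162, minus strand): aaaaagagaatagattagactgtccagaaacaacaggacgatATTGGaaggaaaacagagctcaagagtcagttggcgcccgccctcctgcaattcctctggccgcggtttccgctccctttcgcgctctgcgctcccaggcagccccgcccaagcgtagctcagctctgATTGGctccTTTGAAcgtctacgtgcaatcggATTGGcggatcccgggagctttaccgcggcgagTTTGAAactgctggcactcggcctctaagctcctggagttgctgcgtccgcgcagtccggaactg
In tumor and control samples, Mcm3 was at 114, 129 and 157 TPM and 2.96, 3.31 and 2.52 TPM, Cenpa at 117, 116 and 137 TPM and 1.09, 1.36 and 2.1 TPM, and Cdk1 at 66.3, 56.8 and 75.6 TPM and 0.282, 0.526 and 0.405 TPM.

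DNA repair genes rose in part. Of 27 homologous recombination and Fanconi genes, 17 rose and 1, the nuclease subunit Mus81, fell (log2 fold change -1.14, adjusted p = 0.00028), a change that was under the fold threshold after median-of-ratios scaling (-0.97). Its partner Eme1 was at 21.3, 15.6 and 18.9 TPM against 0.187, 0.287 and 0.18 TPM (log2 fold change 4.0, SE 0.16, adjusted p = 6.72e-06). Brca1 was at 18.2, 25.7 and 21.4 TPM against 0.593, 0.671 and 0.711 TPM (log2 fold change 3.77, SE 0.16, adjusted p = 8.55e-06). Rad52 was not called. In the checkpoint and end joining list 8 of 22 genes rose. Clspn, Chek1 and Chek2 rose by 3.69, 3.38 and 2.61 log2 units, whereas the apical kinase Atr and the end joining genes Lig4 and Prkdc were not called. Of 25 genes of the p53 list, 8 rose and 4 fell. The largest rises, Psrc1 (4.71) and Gtse1 (3.97), are genes of the spindle and of the G2 and M phases, and the largest fall was that of Perp (-1.94). Mdm2 was not called (0.20). Of 14 tested BCL2 family genes 6 rose, 1 fell and 7 were not called. The proapoptotic members Bok, Bid and Bcl2l11 were among those that rose (3.28, 3.13 and 1.96), and the prosurvival Bcl2l2 fell (-1.87).

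**Figure D1:**
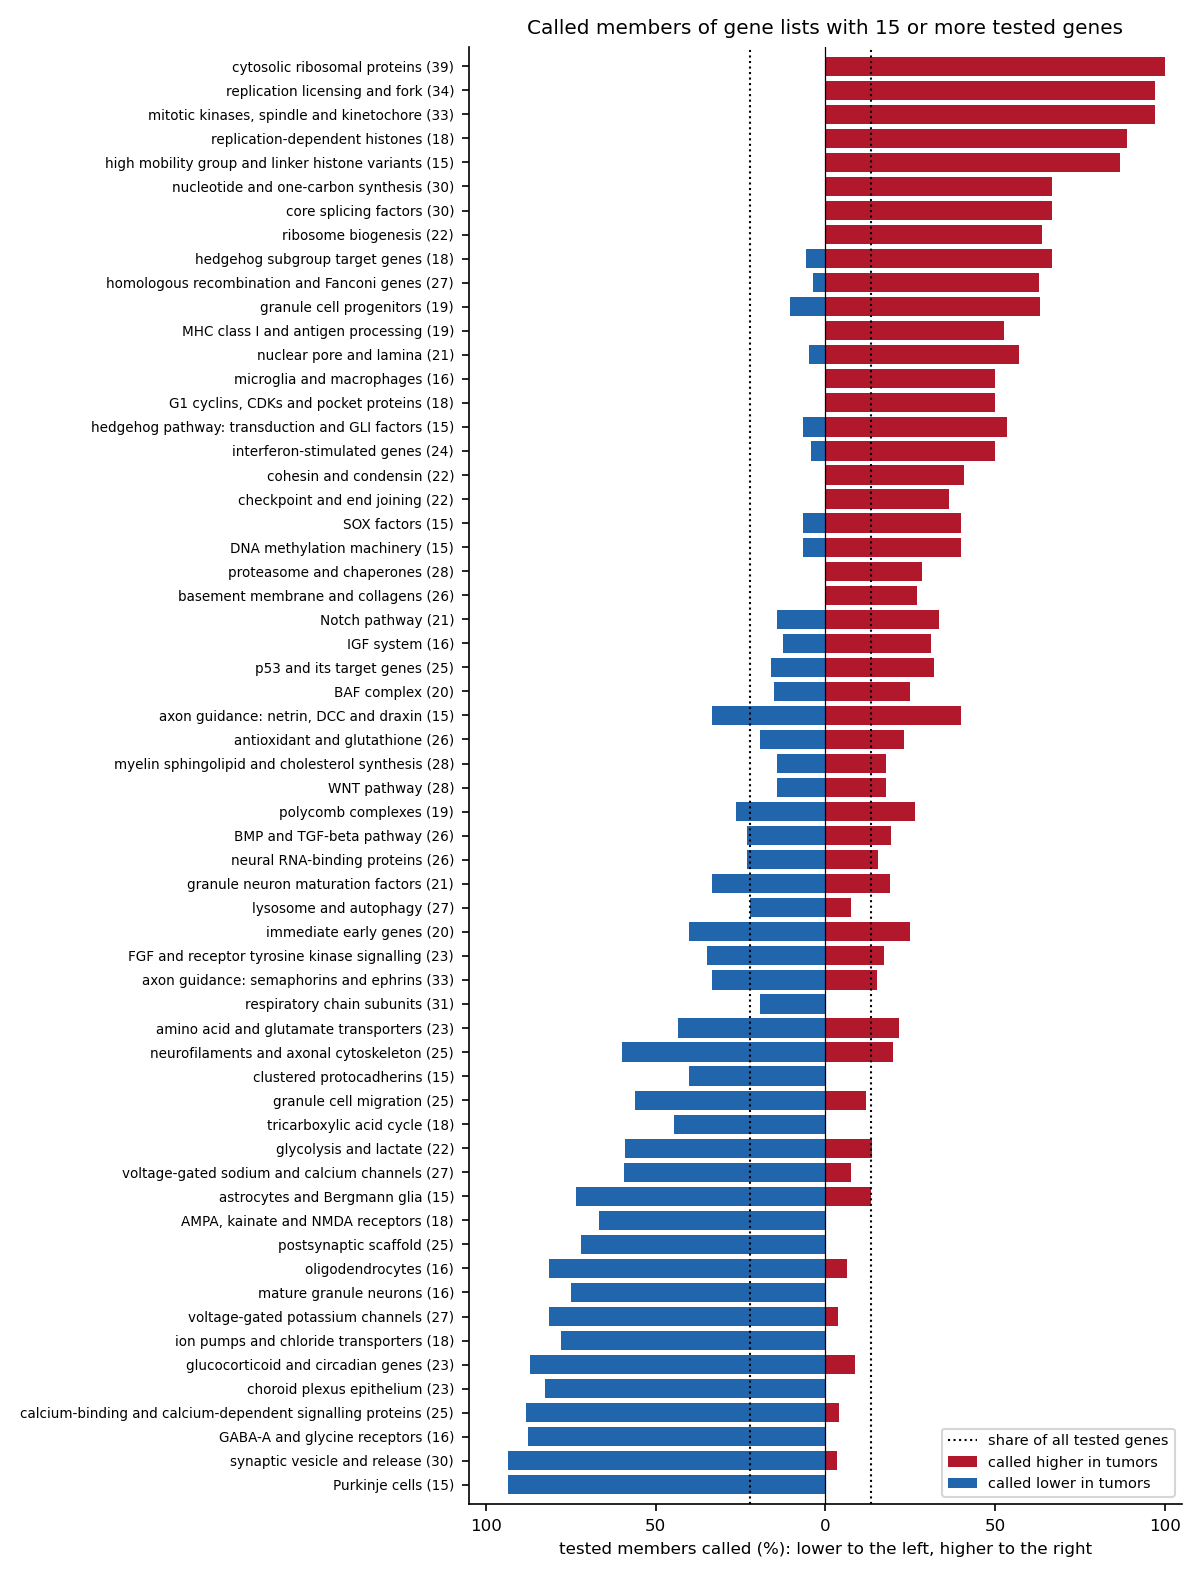
Gene lists with at least 15 tested genes, with the percentage of tested genes called higher in tumors drawn to the right and called lower drawn to the left; dotted lines mark the shares over all tested genes, 13.5% higher and 22.3% lower. Ribosomal protein, replication and mitotic lists lie far to the right, and synaptic, GABA-A receptor, calcium-binding and glucocorticoid and circadian lists far to the left.

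Genes for making ribosomes, nucleotides and chromatin rose together. All 39 cytosolic ribosomal protein genes rose, with a median log2 fold change of 1.91. Rplp0, of the ribosomal stalk, was at 2460, 2540 and 2490 TPM in the tumors and 336, 349 and 324 TPM in the controls (log2 fold change 2.89, SE 0.09, adjusted p = 3.7e-06). Many ribosomal protein genes have processed pseudogenes, so their TPM depends on how the authors' quantification shared reads among copies. Of 22 ribosome biogenesis genes 14 rose, with nucleophosmin Npm1 at 1770, 1180 and 1570 TPM against 243, 246 and 251 TPM (log2 fold change 2.59, adjusted p = 2.09e-05). Of 30 nucleotide and one-carbon genes 20 rose and none fell. Rrm2, the regulated subunit of ribonucleotide reductase, was at 90.9, 158 and 195 TPM against 1.45, 1.93 and 2.05 TPM (log2 fold change 5.66, SE 0.28, adjusted p = 1.14e-05), and thymidine kinase Tk1 at 53.9, 74.3 and 98.5 TPM against 0.934, 0.954 and 1.03 TPM (log2 fold change 5.24, adjusted p = 8.01e-06). Core splicing factors rose in 20 of 30 genes, Snrpg most (3.33). Of 18 replication-dependent histone genes 16 rose. Hist1h2ao was at 2130, 1920 and 1820 TPM against 12.7, 13.2 and 7.86 TPM (log2 fold change 7.35, adjusted p = 2.7e-06), but histone genes have near-identical copies and mostly lack poly(A) tails, so these values are uncertain. High mobility group and histone variant genes rose in 13 of 15. Hmgb2 was at 358, 538 and 437 TPM against 8.61, 7.34 and 8.04 TPM (log2 fold change 5.61, SE 0.16, adjusted p = 3.41e-06), and the nuclear lamina gene Lmnb1 at 312, 294 and 320 TPM against 12.2, 13.8 and 14.1 TPM (log2 fold change 4.43, SE 0.10, adjusted p = 1.94e-06).

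More genes of energy metabolism fell than rose. Of 22 glycolysis genes 3 rose and 13 fell (median -1.20). The 3 that rose were Hk2, the lactate exporter Slc16a3 and Ldha. Hk2 was at 48.3, 76.6 and 78.7 TPM in the tumors and 7.18, 8.3 and 7.07 TPM in the controls (log2 fold change 2.99, SE 0.20, adjusted p = 3.31e-05), whereas Hk1, the main brain hexokinase, was at 19.9, 36.4 and 38.4 TPM against 217, 189 and 186 TPM (log2 fold change -2.66, SE 0.24, adjusted p = 0.000108). The lactate dehydrogenases crossed in the same way. Ldha was at 700, 294 and 418 TPM against 176, 190 and 187 TPM (log2 fold change 1.26, adjusted p = 0.00768), and Ldhb was at 137, 229 and 316 TPM against 961, 949 and 988 TPM (log2 fold change -2.16, adjusted p = 0.00051). GB344 was the highest tumor for Ldha, whose log2 fold change was 0.93 without it and whose adjusted p was 0.0218 to 0.0292 without GB370 or any control. Slc16a3 had an adjusted p of 0.0115 to 0.0183 without GB344 or any control. Aldoc and Eno2, the aldolase of Purkinje cells and astrocytes and the enolase of neurons, fell (log2 fold change -4.65 and -4.52), whereas the general isoforms moved less, with Aldoa at -2.11 and Eno1 not called at 0.17. Of 18 tricarboxylic acid cycle genes 8 fell, with Sdha at 82.5, 84.3 and 88.7 TPM against 364, 375 and 377 TPM (log2 fold change -2.11, SE 0.08, adjusted p = 5.76e-06). Of 31 respiratory chain subunits 6 fell and none rose, a share under the 22.3% of all tested genes. Sdha was one of them, and the other 5 lay near the fold threshold, from -1.0 for Ndufv1 to -1.12 for Uqcrc2, so that 1 fell after median-of-ratios scaling and 3 without GB344, and Ndufv1 lost its call without GB344, GB370 or GB517. Amino acid transporters of dividing cells rose, with Slc1a5 and Slc7a5 up by 3.33 and 2.26 log2 units, and the neuronal and glial glutamate transporters Slc1a6, Slc17a7 and Slc1a3 fell (-4.59, -4.05 and -2.32).

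Genes of mature cerebellar neurons were lower in the tumors. Of 15 Purkinje cell genes 14 fell (median -4.17), and Foxp2 was not called (0.61). Pcp2 was at 15.6, 78.7 and 124 TPM in the tumors and 2020, 1940 and 1720 TPM in the controls (log2 fold change -5.11, SE 0.69, adjusted p = 0.000619), and Car8 at 5.34, 22.4 and 24.7 TPM against 587, 544 and 622 TPM (log2 fold change -5.22, SE 0.51, adjusted p = 0.000138). Summed over the list, Purkinje genes held 368.3, 541.4 and 664 TPM in the tumors and 8542 to 9309 TPM in the controls. GB344 was the lowest tumor in all of these but Pvalb. Of 16 mature granule neuron genes 12 fell. Gabra6, a GABA-A receptor subunit of granule neurons, was at 8.11, 26.9 and 22.7 TPM against 604, 584 and 670 TPM (log2 fold change -5.09, SE 0.40, adjusted p = 5.44e-05), and Cbln3, a synaptic organizer, at 8.48, 38.6 and 39.4 TPM against 736, 593 and 585 TPM (log2 fold change -4.68, adjusted p = 0.000312). The transcription factors Zic1 and Zic2, also on that list, were not called (-0.14 and -0.39). All 12 genes of inhibitory interneurons and Golgi cells fell, led by the vesicular GABA transporter Slc32a1 at 1.25, 6.66 and 8.99 TPM against 180, 162 and 154 TPM (log2 fold change -4.90, adjusted p = 0.000207). Neuronal Rbfox3 (NeuN) was at 90.8, 186 and 188 TPM against 378, 290 and 289 TPM and was not called (log2 fold change -1.10, SE 0.29, adjusted p = 0.0141), although it passed as lower with all 4 groups in one fit (adjusted p = 0.00202).

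Most genes of the synapse and channel lists fell. Of 30 synaptic vesicle and release genes 28 fell. Syt1, the calcium sensor of fast release, was at 10.7, 17.7 and 15.7 TPM against 251, 254 and 262 TPM (log2 fold change -4.06, SE 0.18, adjusted p = 8.37e-06), and Snap25 at 105, 218 and 205 TPM against 1970, 1990 and 2570 TPM (log2 fold change -3.68, SE 0.29, adjusted p = 5.42e-05). The single member that rose was Stx1a, at 25.3, 25.2 and 28.3 TPM in the tumors and 2.87, 3.58 and 2.71 TPM in the controls (log2 fold change 2.75, SE 0.14, adjusted p = 1.34e-05). Glutamate receptor genes fell in 12 of 18, among them Grin2a at 0.249, 0.531 and 0.365 TPM against 16.4, 21.2 and 23 TPM (log2 fold change -3.93, adjusted p = 9.2e-06). Kainate receptor genes Grik2 and Grik5 were not called. GABA-A and glycine receptor genes fell in 14 of 16, metabotropic glutamate receptor genes in 8 of 10 and postsynaptic scaffold genes in 18 of 25. Potassium channel genes fell in 22 of 27, and Kcnq5 rose (log2 fold change 1.54, adjusted p = 0.00244), though not without GB517 or GB520 (adjusted p = 0.0123 and 0.012). Of the sodium and calcium channel genes 16 of 27 fell, and Scn3b and Cacna2d1 rose (1.80 and 1.41). In the calcium-binding list 22 of 25 genes fell. Hippocalcin, Hpca, was the exception there, at 878, 1050 and 2360 TPM in the tumors and 158, 109 and 142 TPM in the controls (log2 fold change 3.26, SE 0.37, adjusted p = 0.00027), with GB370 the highest. Neurofilament genes Nefl, Nefm and Nefh fell (log2 fold change -5.69, -4.04 and -5.11), whereas the immature neuron tubulin-binding proteins Dcx and Stmn1 rose by 4.57 and 1.61.

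Paralog pairs that switch when progenitors become neurons were compared within each sample. Within the BAF chromatin remodeler, the progenitor subunit Actl6a rose (116, 109 and 123 TPM against 19.7, 23.7 and 23.3 TPM, log2 fold change 2.34, adjusted p = 9.87e-06), and the neuronal subunit Actl6b was at 31.3, 70.5 and 61.2 TPM against 96.7, 91.3 and 83.2 TPM and not called (log2 fold change -0.80, adjusted p = 0.0438). In polycomb complex PRC2, Ezh2 was at 108, 161 and 156 TPM against 11.9, 12.6 and 11.1 TPM (log2 fold change 3.46, adjusted p = 1.14e-05) and Ezh1 at 21.1, 32.5 and 24.2 TPM against 66.9, 64.3 and 59.9 TPM (log2 fold change -1.28, adjusted p = 0.000486), so both members of that pair were called, in opposite directions. The splicing repressor Ptbp1 rose (log2 fold change 2.69, adjusted p = 4.85e-06) and its neural paralog Ptbp2 was not called (0.56). Tubulin Tubb5 rose and Tubb4a fell (2.70 and -3.05). Receptor pairs did not cross in this sense. NMDA subunit Grin2c fell from 279, 261 and 225 TPM to 9.33, 20.7 and 16.9 TPM (log2 fold change -4.01, adjusted p = 3.09e-05), while the early subunit Grin2b was at 1.66, 3.18 and 1.47 TPM against 2.45, 3.68 and 4.13 TPM and not called (-0.53). Early GABA-A subunit Gabra2 fell less than Gabra6 (-1.86 against -5.09), and the sodium channel Scn3a was not called (0.74) while Scn1a fell (-4.09). Without GB344, Scn3a passed as higher (log2 fold change 1.06, adjusted p = 0.00265). Chloride exporter Slc12a5 (KCC2) fell (log2 fold change -4.89, adjusted p = 0.000132) and the importer Slc12a2 (NKCC1) fell less (log2 fold change -1.39, adjusted p = 0.00104). Slc12a2 was under the fold threshold against the Brca2-mut;Trp53-WT and adjacent cerebella (-0.96 and -0.98). The maintenance methyltransferase Dnmt1 rose (1.28) and Dnmt3a was not called (-0.34).

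**Figure D2:**
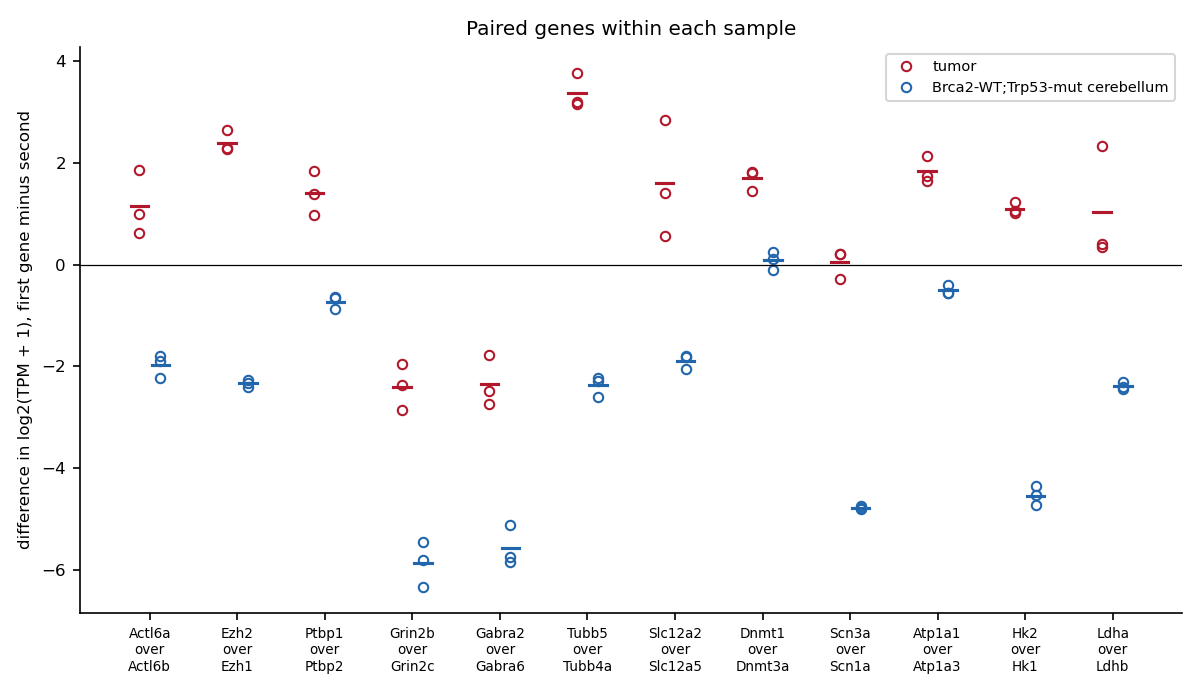
Difference of log2(TPM + 1) between the first and the second gene of 12 paralog pairs, in the 3 tumors and the 3 Brca2-WT;Trp53-mut control cerebella; each point is a sample and each bar a group mean. In all 12 pairs the 3 tumor points lie above the 3 control points.

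Transcription factors of granule neuron maturation did not move as a block. Of 21 genes 4 rose and 7 fell. Nfia and Nfib, NFI factors of granule neuron differentiation, rose, with Nfib at 214, 286 and 246 TPM against 51.6, 48.5 and 50.5 TPM (log2 fold change 2.28, adjusted p = 1.42e-05). Etv1, an activity-dependent maturation factor, fell from 232, 224 and 258 TPM to 12.9, 21.9 and 26.1 TPM (log2 fold change -3.54, SE 0.24, adjusted p = 3.18e-05), and Neurod2 and Mef2a fell less (-2.49 and -1.40). Top2b, the topoisomerase of postmitotic neurons, was at 114, 141 and 115 TPM against 75.2, 78.8 and 89 TPM and was not called (log2 fold change 0.59, adjusted p = 0.00428). SOX factors rose in 6 of 15, with Sox18 at 139, 189 and 269 TPM against 4.73, 9.68 and 6.21 TPM (log2 fold change 4.66, adjusted p = 2.81e-05). Among guidance genes the netrin receptor Dcc rose (36.7, 85.9 and 59.7 TPM against 1.53, 2.83 and 2.34 TPM, log2 fold change 4.20, adjusted p = 4.98e-05). The netrin receptors of the UNC5 family, Unc5a, Unc5b, Unc5c and Unc5d, fell, Unc5a most (-3.25). The chemokine receptor Cxcr4 was at 154, 238 and 178 TPM against 4.16, 6.52 and 5.72 TPM (log2 fold change 4.88, SE 0.21, adjusted p = 8e-06), and its ligand Cxcl12 fell (log2 fold change -1.22, adjusted p = 0.000741). Robo3 rose in all tumors but unevenly, at 68.7, 10.6 and 4.85 TPM against 0.541, 0.289 and 0.472 TPM (log2 fold change 3.55, SE 0.83, adjusted p = 0.00815), and its adjusted p was 0.0187 to 0.0275 without GB359 or any control.

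Developmental signalling lists were mixed. In the WNT list 5 of 28 genes rose and 4 fell. The secreted inhibitors Sfrp1 and Sfrp2 rose, Sfrp1 to 151, 541 and 664 TPM from 6.45, 6.1 and 5.98 TPM (log2 fold change 5.73, adjusted p = 0.000102), and the WNT target Axin2 was not called (-0.14). In the Notch list 7 of 21 genes rose and 3 fell. Dll3 was at 134, 55.4 and 20.4 TPM against 2.46, 1.49 and 1.35 TPM (log2 fold change 4.32, adjusted p = 0.00082), with GB344 the highest, and Hes1 and Hey1 rose by 1.46 and 1.86. BMP list members Id4, Nog, Bmp6 and Smad9 fell (log2 fold change -3.63, -3.0, -2.82 and -2.25), while Tgfb2 and its receptor Tgfbr1 rose (1.84 and 1.63). Fibroblast growth factor receptors Fgfr1, Fgfr2 and Fgfr3 fell, Fgfr3 most (-3.54). Pdgfra rose to 53.3, 172 and 193 TPM from 10.6, 9.16 and 10.3 TPM (log2 fold change 3.47, SE 0.46, adjusted p = 0.000597), as did Cspg4, another of the 7 oligodendrocyte precursor genes (log2 fold change 1.44, adjusted p = 0.00151). Enpp6 fell (log2 fold change -2.61, adjusted p = 4.4e-05), and the other 4, Vcan, Gpr17 and Bcas1 among them, were not called.

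Glia and supporting cells changed in different directions. Of 16 oligodendrocyte genes 13 fell (median -3.54). Myelin basic protein Mbp was at 50.9, 184 and 115 TPM in the tumors and 2720, 2630 and 2790 TPM in the controls (log2 fold change -4.71, SE 0.42, adjusted p = 9.31e-05), and Mobp at 3.68, 23.9 and 16.5 TPM against 609, 582 and 653 TPM (log2 fold change -5.60, SE 0.57, adjusted p = 0.000171). Olig2 rose, against the rest of that list, to 64.1, 73.1 and 85.6 TPM from 16.4, 24.1 and 24.7 TPM (log2 fold change 1.74, adjusted p = 0.000225), while Olig1 and Sox10 were not called. Of 15 astrocyte and Bergmann glia genes 11 fell and 2 rose. Gdf10, a Bergmann glia marker, was at 18, 10.6 and 14.3 TPM against 221, 186 and 146 TPM (log2 fold change -3.61, adjusted p = 2.3e-05), and Aqp4 at 17.6, 39.9 and 10.9 TPM against 128, 170 and 172 TPM (log2 fold change -2.91, adjusted p = 0.000902). The risers Fabp7 and Sox9 are radial glia genes (2.04 and 1.23), and Gfap was not called (-0.30). Among 14 endothelial genes 5 fell, those of the blood-brain barrier transporters Abcb1a and Slc2a1 among them, and the vessel genes Pecam1, Cdh5, Kdr and Cldn5 were not called. Basement membrane genes Col4a1 and Col4a2 rose by 2.86 and 2.27. Ptgds, a prostaglandin synthase of meninges, choroid plexus and oligodendrocytes, fell to 15.6, 62.9 and 319 TPM from 3160, 2310 and 2250 TPM (log2 fold change -5.19, SE 0.96, adjusted p = 0.00283), highest in GB370. Its adjusted p was 0.0103 to 0.0135 without GB359 or any control.

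**Figure D3:**
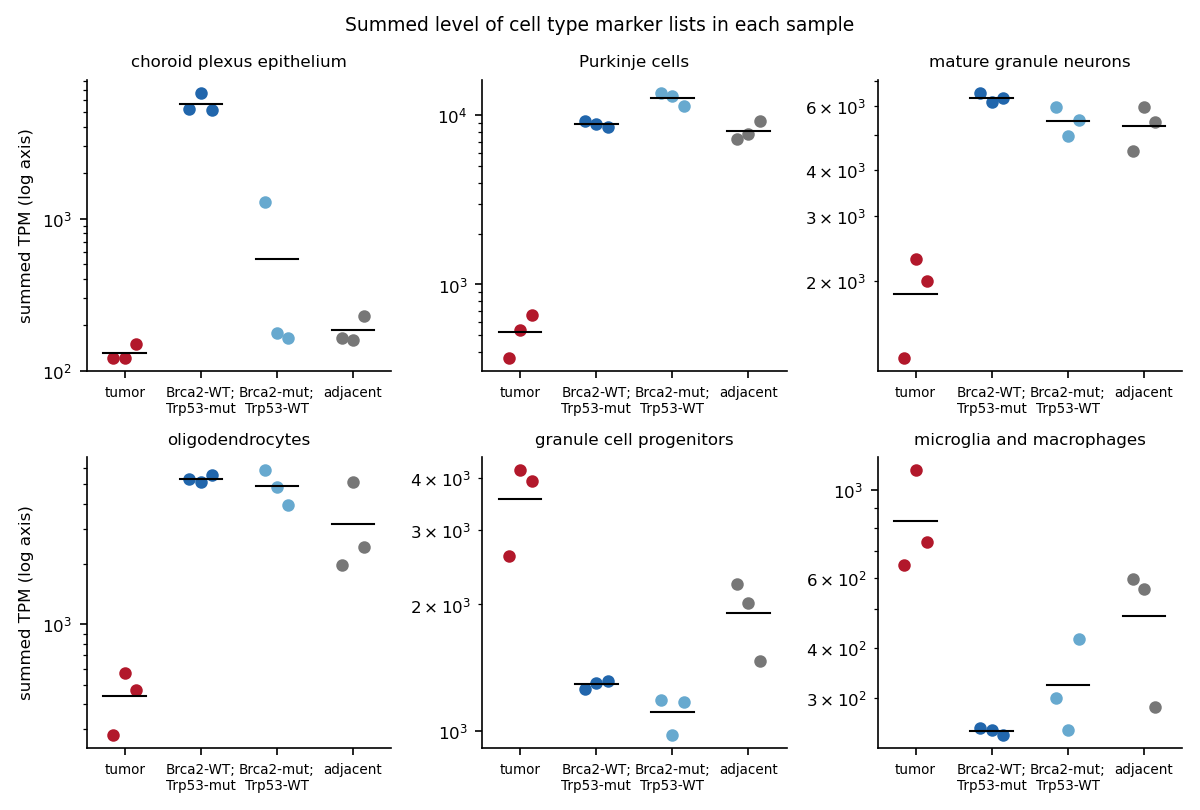
Summed TPM of 6 marker lists in all 12 samples, on a log axis; each point is a sample, the line is the group mean, and the groups, from left, are tumors, Brca2-WT;Trp53-mut cerebellum, Brca2-mut;Trp53-WT cerebellum and adjacent cerebellum of the tumor mice. Purkinje, granule neuron and oligodendrocyte sums are lower in the tumors than in all cerebella, and the choroid plexus sum is highest in the 3 Brca2-WT;Trp53-mut controls.

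Choroid plexus epithelium set these controls apart from the other cerebella. Of 23 choroid plexus genes 19 fell in the tumors and none rose (median -2.76), and Slc31a1, Cldn2, Otx2 and Clic6 were not called, although Clic6 passed as lower without GB344 (log2 fold change -1.8). Ttr, transthyretin, the thyroid hormone carrier of cerebrospinal fluid, had the largest fall of all genes, from 3960, 5040 and 3850 TPM in the controls to 3.44, 7.52 and 9.15 TPM in the tumors (log2 fold change -9.19, SE 0.30, adjusted p = 4.43e-06). In the Brca2-mut;Trp53-WT cerebella, however, Ttr was at 842, 9.6 and 11.8 TPM, so GB508 and GB512 were within about 3-fold of the tumors. Enpp2 (autotaxin) was at 10, 15.8 and 13.7 TPM in the tumors, 861, 1120 and 879 TPM in these controls and 298, 96.9 and 80.7 TPM in the Brca2-mut;Trp53-WT cerebella. Folr1, a folate receptor of this epithelium, was at 0, 0.15 and 0.104 TPM against 30, 32.7 and 26.8 TPM (log2 fold change -4.83, adjusted p = 3.7e-06). Members under 1 TPM in every tumor, such as Folr1, were tested only because the controls passed the filter. Those members could not have been called higher, so the count is no test of direction for them. The summed level of the list was 122 to 150.3 TPM in tumors, 5116 to 6637 TPM in these controls, 159.4 to 229.8 TPM in adjacent cerebella, and 1278, 177 and 163.5 TPM in the Brca2-mut;Trp53-WT cerebella. A two-sided exact permutation test of the tumor and control sums gave p = 0.1, the smallest that 3 samples against 3 allow. Set against the Brca2-mut;Trp53-WT cerebella, 3 of 14 tested choroid plexus genes fell, namely Enpp2, Slc13a4 and Kcnj13, Slc31a1 rose, and Ttr was not called. The ependymal list, another lining of the ventricles, had 7 of 11 genes lower and 1 higher. Its summed level was 66.19 to 74.08 TPM in tumors and 78.04 to 94.6 TPM in these controls. In the other cerebella it was closer to the tumors, at 64.67 to 74.08 TPM in adjacent and 74.01 to 77.02 TPM in Brca2-mut;Trp53-WT cerebella. The 3562 genes that fell were also compared between these controls and GB508 and GB512, as ratios of mean TPM + 1. On this scale 77 were at least 2 times as high in these controls, and 3485 were under 2 times. The scale understates the ratio of genes with low TPM.

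Some microglia and antigen presentation genes rose, and no gene of either list fell. Of 16 microglia and macrophage genes 8 rose and none fell (median 1.32), and 1 of 16 rose when adjacent cerebellum was the control. Lyz2, lysozyme of myeloid cells, was at 140, 190 and 99.5 TPM in the tumors and 14.6, 11 and 8.85 TPM in the controls (log2 fold change 3.5, SE 0.27, adjusted p = 4.95e-05), and C1qa at 134, 189 and 128 TPM against 41.9, 31.3 and 34.7 TPM (log2 fold change 2.02, SE 0.18, adjusted p = 9.52e-05). The homeostatic microglia genes Tmem119, Cx3cr1 and Csf1r were not called, at -0.04 to 0.31 log2 units. Of 2 tested lymphocyte genes, Cd4 and Cd79a, neither was called, and Cd3e, Cd3g, Cd8a, Ms4a1 and Nkg7 were too low to test. In the MHC list 10 of 19 genes rose. H2-K1, a class I heavy chain, was at 332, 241 and 74.4 TPM against 36.7, 34.5 and 34 TPM (log2 fold change 2.34, SE 0.51, adjusted p = 0.00587). The class II gene H2-Ab1 was at 120, 60.4 and 18.9 TPM against 6.15, 5.49 and 5.67 TPM (log2 fold change 2.97, SE 0.59, adjusted p = 0.00404) and Cd74, the invariant chain, at 201, 111 and 37 TPM against 13.4, 10.6 and 10.5 TPM (log2 fold change 2.93, adjusted p = 0.00316). In these 3 genes GB344 was the highest tumor and GB370 the lowest, while for microglia genes GB359 was the highest, with summed levels of 647, 1118 and 740.3 TPM against 241.3 to 251.6 TPM in the controls. The part of microglia in the MHC result was not tested. The count of MHC genes rested on each library, since without GB359 or any single control 0 or 1 gene passed, and without GB370 13 did. The adjusted p of the 3 genes above was 0.0114 to 0.0237 without GB359 or any single control.

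Interferon-stimulated genes were highest in GB344 and lowest in GB370. Of 24 genes 12 rose and 1 fell (median 2.08). Irf7, the master factor of type I interferon responses, was at 69.7, 20.2 and 13.2 TPM in the tumors and 2.47, 2.98 and 3.18 TPM in the controls (log2 fold change 2.84, SE 0.55, adjusted p = 0.00354). Usp18, a brake on interferon signalling, was at 71.7, 19.5 and 11.8 TPM against 1.31, 2.13 and 1.35 TPM (log2 fold change 3.38, SE 0.60, adjusted p = 0.00232). The ubiquitin-like Isg15 was at 236, 28.5 and 16.9 TPM against 6.48, 7.89 and 7.43 TPM and was not called (log2 fold change 2.60, adjusted p = 0.037). In all 3 genes the tumors were above the controls, but GB344 was 3 or more times as high as the others. The median difference of the list from the control mean was 2.95 log2 units in GB344, 1.82 in GB359 and 1.11 in GB370, and between -0.05 and 0.01 in the controls. The DNA sensor Mb21d1 (cGAS) and its effector Tmem173 (STING) rose more evenly. Mb21d1 was at 9.92, 8.61 and 4.19 TPM against 0.649, 0.654 and 0.543 TPM (log2 fold change 2.34, SE 0.29, adjusted p = 0.000389), and Tmem173 at 12.8, 15.5 and 12.9 TPM against 2.06, 2.6 and 1.24 TPM (log2 fold change 2.33, SE 0.21, adjusted p = 9.52e-05). Stat2, part of the factor that interferon activates, fell (log2 fold change -1.38, adjusted p = 0.000299). Numbers of calls depended on the libraries: 3 to 5 genes rose without GB359 or any single control, 17 without GB344 and 19 without GB370. Irf7 had an adjusted p of 0.0129 to 0.016 without any single control, and Usp18 of 0.0113 and 0.0114 without GB520 or GB517, while Isg15 passed without GB344 (log2 fold change 1.48, adjusted p = 0.00169). Set against the Brca2-mut;Trp53-WT cerebella, 4 of 24 genes rose.

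**Figure D4:**
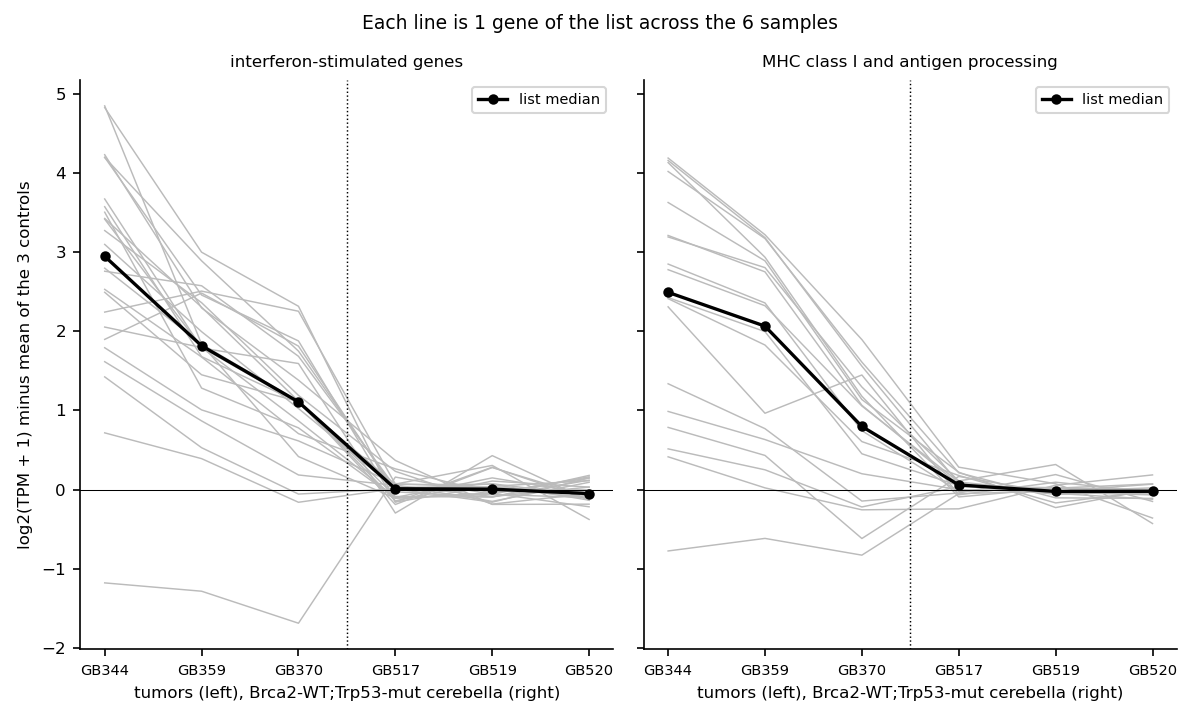
Level of each interferon-stimulated and MHC gene as log2(TPM + 1) difference from the control mean in the 6 samples; thin lines join the samples of a gene and the heavy line is the list median. The interferon medians are 2.95, 1.82 and 1.11 in GB344, GB359 and GB370, and near 0 in the controls.

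The promoters of interferon-stimulated genes were searched for the interferon response motif. Windows were found for 17 of the genes (21 windows), and TTTCNNTTT, on either strand, was in 52.4% of them and in 10.6% of all windows. Oas1a, an oligoadenylate synthetase, and Gbp3, a guanylate-binding protein, were chosen by size of change among called members whose windows hold the motif. Each holds 2 overlapping matches close to its start. Capitals mark the matches.
Oas1a (chr5:120907476-120907775, minus strand): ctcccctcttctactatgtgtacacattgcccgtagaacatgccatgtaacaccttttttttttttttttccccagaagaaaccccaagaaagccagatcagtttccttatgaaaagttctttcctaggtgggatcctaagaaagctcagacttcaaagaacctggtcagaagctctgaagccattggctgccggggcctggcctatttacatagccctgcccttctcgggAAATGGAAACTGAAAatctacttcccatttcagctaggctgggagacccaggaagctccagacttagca
Gbp3 (chr3:142559794-142560093, plus strand): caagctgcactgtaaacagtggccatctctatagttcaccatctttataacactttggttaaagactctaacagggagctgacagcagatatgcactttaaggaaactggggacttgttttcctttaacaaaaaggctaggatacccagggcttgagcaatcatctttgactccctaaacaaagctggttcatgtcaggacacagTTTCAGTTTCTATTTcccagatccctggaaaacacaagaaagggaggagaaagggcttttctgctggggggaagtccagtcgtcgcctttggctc
Oas1a was at 23.7, 5.71 and 4.86 TPM in the tumors against 0.585, 1.62 and 0.772 TPM in the controls (log2 fold change 2.35, adjusted p = 0.00827), and Gbp3 at 50.4, 22.6 and 9.39 TPM against 3.51, 3.49 and 4.43 TPM (log2 fold change 2.28, adjusted p = 0.00793). Neither passed without GB359 or any control, with adjusted p of 0.0133 to 0.0329.

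Glucocorticoid and circadian genes fell, with Hsd11b2 and Fkbp5 as exceptions. Of 23 genes 20 fell and 2 rose (median -1.84). Hsd11b2, the enzyme that inactivates glucocorticoids, was at 52.9, 407 and 314 TPM in the tumors and 0.506, 0.519 and 0.182 TPM in the controls (log2 fold change 7.10, SE 0.72, adjusted p = 0.000167), lowest in GB344. Hsd11b1, the enzyme that regenerates active glucocorticoid, moved the other way, to 6.99, 13.8 and 8.7 TPM from 86.9, 88.9 and 113 TPM (log2 fold change -3.21, SE 0.24, adjusted p = 4.66e-05). The receptor gene Nr3c1 and the targets Sgk1, Tsc22d3 and Per1 fell (-1.36, -2.14, -1.42 and -1.84), whereas Fkbp5, also a target, rose (log2 fold change 2.24, adjusted p = 8.3e-05). Among clock outputs, Dbp was at 17, 25.9 and 21 TPM against 249, 155 and 162 TPM (log2 fold change -3.07, SE 0.22, adjusted p = 4.2e-05) and Nr1d1 at 13.4, 15.7 and 17 TPM against 160, 126 and 115 TPM (log2 fold change -3.03, adjusted p = 1.27e-05). Both arms of the clock fell, since the activator Arntl and the repressors Per1, Per2 and Per3 were all lower (-2.09, -1.84, -1.66 and -2.27), and Cry1 was not called (-0.49). Time of collection was not given in the sources used here. The E-box CACGTG was in 25.8% of 31 windows of these genes and in 7.15% of all windows. Ciart, a clock repressor that fell from 48.3, 27.2 and 29.7 TPM to 5.77, 7.71 and 8.05 TPM (log2 fold change -2.11, adjusted p = 0.000296), has 3 E-boxes in its window, shown in capitals.
Ciart (chr3:95882179-95882478, minus strand): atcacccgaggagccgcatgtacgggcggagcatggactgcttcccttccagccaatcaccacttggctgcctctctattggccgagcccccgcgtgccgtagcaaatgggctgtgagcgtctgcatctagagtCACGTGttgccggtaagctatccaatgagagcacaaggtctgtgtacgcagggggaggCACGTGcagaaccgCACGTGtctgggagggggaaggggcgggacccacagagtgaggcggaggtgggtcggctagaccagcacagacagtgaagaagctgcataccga

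Activity-regulated immediate early genes were split. Fos fell from 86.9, 63 and 57.7 TPM to 5.74, 9.16 and 6.3 TPM (log2 fold change -3.12, SE 0.22, adjusted p = 3.53e-05), and Nr4a1, Arc, Egr4 and Npas4 fell as well (log2 fold change -2.76, -2.17, -2.96 and -1.97). Ier5, Egr2 and Fosl2 rose instead, Ier5 to 138, 205 and 273 TPM from 17.2, 18.9 and 17.6 TPM (log2 fold change 3.4, adjusted p = 3.4e-05). Jun, Junb and Jund were not called.

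The long noncoding RNAs Meg3, Rian and Mirg of an imprinted region on chromosome 12 fell in the tumors. The region runs from 109540996 to 109749458 on GRCm38.p6, and its noncoding RNAs are made from the maternal chromosome as long host RNAs with small RNAs inside them. Of 35 tested genes there, 26 of them miRNA genes, 19 were at 0 TPM in all 3 tumors and were tested only because the controls passed the filter, so these could not have risen and no count of falls is given. Meg3 was at 60.2, 90 and 105 TPM in the tumors and 1180, 1100 and 1180 TPM in the controls (log2 fold change -3.78, SE 0.20, adjusted p = 1.39e-05), Rian at 15.5, 24.4 and 31.6 TPM against 364.4, 359.1 and 422.8 TPM (log2 fold change -4.00, SE 0.24, adjusted p = 2.09e-05), and Mirg at 1.19, 2.13 and 2.09 TPM against 34.1, 36.6 and 37.9 TPM (log2 fold change -3.75, SE 0.18, adjusted p = 1.04e-05). These 3 host RNAs were also higher in the other cerebella than in the tumors. Group means of the Brca2-mut;Trp53-WT and adjacent cerebella were 846.1 and 1166 TPM for Meg3, 307.0 and 275.6 TPM for Rian and 25.01 and 29.42 TPM for Mirg. Mir341 was listed at 0 in all tumors and at 98.3, 156 and 121 TPM in the controls, and Mir541 at 0 and 84.3, 40.9 and 54.3 TPM. Mir377 was at 3.93, 0 and 0 TPM against 91.4, 152 and 188 TPM, and Mir1188 at 2.97, 3.95 and 0 TPM against 141, 174 and 201 TPM. Some miRNA genes were lower in the other cerebella than in these controls. Mir541 had a mean of 59.86 TPM in these controls and of 26.71 and 13.33 TPM in the Brca2-mut;Trp53-WT and adjacent cerebella, and Mir1188 had means of 172.1, 89.58 and 92.44 TPM. Of the 77 genes that were at least 2 times as high in these controls as in GB508 and GB512 on the TPM + 1 scale, 10 are in this region. These values come from reads of short genes within longer host RNAs in a poly(A) library, so mature miRNAs were not measured. The mature sequences of these 4, the miRNA genes among the 15 largest falls, are given from RefSeq with bases 2 to 8, the seed, in capitals, and no seed is shared among them.
miR-341-5p (chr12:109611521-109611541, plus strand): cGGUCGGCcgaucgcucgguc
miR-341-3p (chr12:109611556-109611576, plus strand): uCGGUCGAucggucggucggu
miR-377-5p (chr12:109740515-109740536, plus strand): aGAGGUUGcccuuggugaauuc
miR-377-3p (chr12:109740553-109740574, plus strand): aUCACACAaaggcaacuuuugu
miR-1188-5p (chr12:109611841-109611861, plus strand): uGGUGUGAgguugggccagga
miR-1188-3p (chr12:109611877-109611901, plus strand): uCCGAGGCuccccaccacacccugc
miR-541-5p (chr12:109742422-109742446, plus strand): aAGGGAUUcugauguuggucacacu
miR-541-3p (chr12:109742466-109742487, plus strand): uGGCGAACacagaauccauacu
A miRNA host RNA that rose was Mir17hg, host of the miR-17 to miR-92 cluster, at 42.6, 33 and 21.6 TPM against 0.271, 0.446 and 0.812 TPM (log2 fold change 4.43, SE 0.27, adjusted p = 2.23e-05).

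Median differences by chromosome differed between tumors more than between controls. The median log2 difference of all genes on a chromosome, relative to all genes of that sample, stayed within 0.051 of 0 for every control on every chromosome. On chromosome 13 it was -0.327, -0.229 and -0.253 in GB344, GB359 and GB370 over 614 genes. Chromosome 19 was at -0.468, -0.083 and -0.251 over 534 genes, lowest in GB344. Other chromosomes stood out in 1 or 2 tumors, with chromosome 8 at 0.335 in GB359, chromosome 6 at 0.343 in GB370 and 0.241 in GB359, chromosome 14 at 0.262 in GB344, and chromosome 12, which holds Mycn and the Meg3 to Mirg region, at -0.235 in GB344 and -0.205 in GB359. Set against the Brca2-mut;Trp53-WT cerebella, chromosome 13 was at -0.314, -0.256 and -0.298, and chromosome 19 at -0.516, -0.147 and -0.276. Whether these medians follow DNA copy number was not tested.

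**Figure D5:**
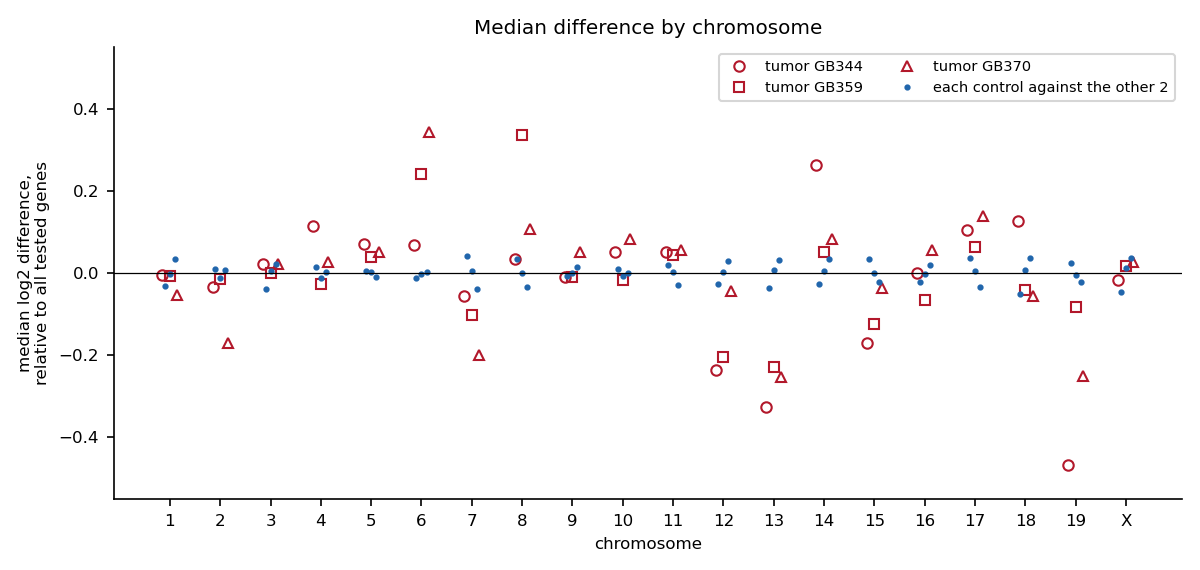
Median log2 difference from the controls of the genes on each chromosome, relative to all genes, for the 3 tumors and, each against the other 2, the 3 controls. Control points stay near 0, whereas chromosome 13 is low in all tumors, chromosomes 8 and 14 are high in 1 tumor each, chromosome 6 is high in GB359 and GB370, chromosome 12 is low in GB344 and GB359, and chromosome 19 is lowest in GB344.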

How the data were processed

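The authors isolated total RNA, selected poly(A) RNA, sequenced 75 bp reads, quantified transcripts with Salmon 0.8.1 against the mm10 known genes and summed them to genes. What the authors deposited is a table of TPM, 24091 genes by 12 samples, and the 6 samples compared had totals of 999793 to 999876. The authors tested counts with DESeq2, and those counts were not used here. Read depth is therefore unknown, no counting interval or detection limit is given, and precision is the spread between mice. The single deposited table had 0 sample columns that were left unused. The 3 samples of a group are different mice by their mouse numbers.

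Of the 24091 genes, 3116 were at 0 in all 6 samples, and the 15970 that reached 1 TPM in 3 or more of them were tested. Values of log2(TPM + 1) were fitted with limma 3.58.1 (lmFit, eBayes with trend) in R 4.3.3, adjusted by the Benjamini-Hochberg method. Calls required an adjusted p under 0.01 and a change of 1 log2 unit or more in either direction. Fold changes on this scale understate the change of genes with low TPM. Genes under 1 TPM in all controls, such as Atoh1, Draxin, Igfbpl1 and Brca1, could not be called lower. Genes under 1 TPM in all tumors could not be called higher. On data drawn with known changes, 85 of 100 genes changed by 2 log2 units and 99 of 100 changed by 3 were recovered, with 0 false calls. Few genes were changed there, all with higher control levels and without the largest spread, and the noise was normally distributed. That check does not give the recovery or the false calls for genes near 0 TPM or with an outlying tumor. Gene symbols, positions, promoter windows and miRNA sequences came from RefSeq GRCm38.p6, with 24045 of 24091 genes matched (99.8%). Python 3.11.15 with pandas 2.3.3, numpy 2.4.6, scipy 1.17.1 and matplotlib 3.10.9 did the rest.

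The comparison, the 77 gene lists and the motifs were chosen with earlier results of these data known, and so are descriptions. Lists were described by counts and medians, without set tests. Named genes were the 15 largest called changes in each direction, up to 5 called members of each list with the largest changes (or the 3 most abundant where fewer than 3 were called), a set of hedgehog, cell cycle and maturation genes, and 12 paralog pairs. Other named genes, such as Ddx1, Nbas, Fam84a, Gen1, Meg3, Rian, Mirg, Mir17hg, Isg15, Stat2, Cxcl12, Rpa1, Anln, Foxp2, Pvalb, H19 and members given as not called, were chosen after their values were seen. Alternatives were 2 pseudocounts, no filter or a 5 TPM minimum, median-of-ratios scaling, quantile normalization, rescaling without Mir6236 and the choroid plexus list, no trend, a fit of all 4 groups, the other control groups, an adjusted p under 0.05 with no fold minimum, and each library left out. Helicases and topoisomerases were not described as a group, and Mcm3, Mcm6, Ddx1, Ddx3y and Top2b are named as members of other lists or regions. Sequencing at 2 sites is mentioned in the methods, with no site given for each sample. Some genes are not reported here.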

Additional observations from a re-analysis of the deposited data

Results flagged for a closer look

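The mitotic and interferon-stimulated lists were above the Brca2-WT;Trp53-mut controls in the adjacent cerebella as well as in the tumors, and the adjacent cerebella are samples that the comparison above does not use. The summed level of the mitotic list was 1026 TPM in the adjacent cerebellum of GB344, 637.6 TPM in that of GB359 and 149.7 TPM in that of GB370, and the highest control was at 118.7 TPM. The tumors of the same mice were at 2261 to 2460 TPM. The summed level of the interferon-stimulated list was 691.8 TPM in the adjacent cerebellum of GB344, 491.2 TPM in that of GB359 and 424.3 TPM in that of GB370, and the highest control was at 274.4 TPM. In both lists the adjacent sample of GB344 was the highest of the 3 and that of GB370 the lowest. One tumor-free cerebellum of the other genotype, GB512 (Brca2-mut;Trp53-WT), was also above these controls, at 212.9 TPM for the mitotic list and 644.2 TPM for the interferon-stimulated list, which exceeds the adjacent sample of GB370 in both lists and that of GB359 in the second. The part of tumor cells in the adjacent samples was not tested.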

How the results depend on the processing

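Apart from Aqp1, no called change of a named gene turned its direction under any alternative. Of 310 named genes 236 were called in the main comparison. With adjacent cerebellum as the control 110 of these lost their call, and 124 of 307 tested named genes were called. With Brca2-mut;Trp53-WT cerebellum 15 lost their call, Cxcl12, Fabp7, Fosl2 and Stat2 among them, and 222 of 309 were called. Aqp1, a choroid plexus gene outside these counts, fell in the main comparison (log2 fold change -1.85, adjusted p = 0.000135). Against adjacent cerebellum it rose (log2 fold change 1.09, adjusted p = 0.00262). The count of genes called higher was 755 against adjacent cerebellum and 4397 at an adjusted p under 0.05 with no fold minimum, where 6081 were lower. Against adjacent cerebellum 2852 were lower. Other alternatives that left out no library gave 1910 to 2698 higher and 2946 to 3746 lower genes. Over all tested genes the median was -0.06 with no filter, -0.01 after median-of-ratios scaling, 0.05 after quantile normalization and -0.03 against Brca2-mut;Trp53-WT cerebellum. Lists with most members called higher numbered 15, with 2 against adjacent cerebellum and 25 at an adjusted p under 0.05 with no fold minimum. With a 5 TPM minimum, the chromosome medians averaged over tumors were 0.034 (chromosome 3), 0.036 (5), 0.071 (11), -0.382 (13) and -0.071 (X), and chromosome 11 was at 0.042 against Brca2-mut;Trp53-WT cerebellum. The causes were not tested. Leaving out single libraries gave 1883 to 2219 higher and 3198 to 3645 lower genes, a median of -0.19 to -0.13, a choroid plexus difference of -5797 to -5037 TPM, and 14 to 16 and 20 to 22 lists mostly higher or lower. No paired analysis was possible because tumors and these controls came from different mice. Depth is unknown, and 3 mice a group limit all p-values.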

Other observations

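Several lists outside the main themes held single genes with large differences. In the complement and acute phase list, C4b was at 61.1, 35.5 and 16.2 TPM in the tumors and 7.09, 5.83 and 6.81 TPM in the controls (log2 fold change 2.17, adjusted p = 0.00394), with adjusted p of 0.0147 to 0.016 without GB359 or any control, and clusterin Clu fell from 674, 725 and 708 TPM to 50.1, 86.1 and 53.9 TPM (log2 fold change -3.49, adjusted p = 1.8e-05). Among chaperones, the cytosolic chaperonin subunits Cct2, Cct3, Cct5, Cct6a and Cct7 rose by 1.16 to 1.46 log2 units, while of the proteasome genes on that list only Psma5 was called (1.05). In the DNA methylation list Uhrf1, which guides Dnmt1 to replicated DNA, was at 95.5, 107 and 114 TPM against 0.93, 0.949 and 1.07 TPM (log2 fold change 5.74, adjusted p = 1.97e-06). Of 13 telomerase, shelterin and ATRX genes 1 rose, Dkc1 (log2 fold change 1.37, adjusted p = 0.000402), and Tert was at 1.8, 1.28 and 0.909 TPM against 1.05, 0.62 and 1.34 TPM (0.22, not called).

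Antioxidant genes were divided. Txnrd1 rose to 171, 144 and 175 TPM from 48.7, 46.2 and 59 TPM (log2 fold change 1.66, adjusted p = 5.39e-05) and heme oxygenase Hmox1 to 19.2, 16.5 and 21.4 TPM from 5.66, 4.45 and 4.55 TPM (log2 fold change 1.77, adjusted p = 9.47e-05), whereas Nqo1 fell to 2.46, 2.36 and 1.65 TPM from 12.7, 11.2 and 12.3 TPM (log2 fold change -2.06, adjusted p = 5.36e-05). Of the cholesterol synthesis genes Mvd and Sqle rose by 1.2 and 1.47 log2 units, and the myelin lipid genes Fa2h and Ugt8a fell (-4.10 and -2.83). Of 15 clustered protocadherin genes 6 fell and none rose, Pcdhac2 most (log2 fold change -2.71, adjusted p = 4.46e-05).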
